A study of Mus musculus with 6 samples.

Results

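Levels of 42 extracellular matrix genes of the lung stroma were followed in single-cell libraries of mouse lung. The genes were picked by name, as symbols listed in every library, out of 29492 symbols in the 6 libraries. They comprise 5 fibrillar collagens, 11 basement membrane genes, 5 other collagens, 12 elastic fibre genes, 6 small proteoglycans and associated genes, and 3 matricellular genes. The mice were male C57BL/6J aged 12 weeks, and each of the 3 groups had 2 biological replicates with 1 library each. Control mice received PBS, LPS mice received lipopolysaccharide at 1 mg/kg, and the third group received the same LPS dose together with SLC-Gq activation, given 7 times. Lungs were taken 3 days after treatment, digested with enzymes and cleared of dead cells. SLC is the subcoeruleus nucleus, a brainstem site, in the series title. The sources used here do not name the agent behind the activation, the route of LPS or the order of the 2 treatments. A group with activation alone was not analysed here. The libraries are called control 1 and 2, LPS 1 and 2, and SLC 1 and 2, the last pair being activation plus LPS.

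The extracellular matrix is the protein scaffold in which lung cells sit. Fibrillar collagens give it tensile strength, elastic fibres let alveoli recoil after each breath, and basement membranes underlie epithelium and capillaries. Small leucine-rich proteoglycans coat collagen fibrils and bind growth factors. In lung these genes are read mainly in fibroblasts: alveolar fibroblasts lie within the alveolar walls, and adventitial fibroblasts form cuffs around airways and large vessels. Endothelial cells and smooth muscle add basement membrane and elastin of their own.

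Each library held 165547 to 253281 barcodes and 31589233 to 48641470 UMIs (unique molecular identifiers, each counting 1 captured mRNA). Barcodes with at least 500 UMIs numbered 11887 to 14599 per library, with a median of 1128 to 2569 UMIs. Mitochondrial UMIs made up a median of 9.72% and 8.53% of a barcode in the controls and 1.27% to 3.01% in the other libraries. Levels are CPM, the UMIs of a gene per 1000000 UMIs summed over the barcodes named, and levels are compared between libraries for 1 gene at a time, not between genes. Any 2 libraries had 1 to 7 barcode labels in common.

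A barcode was called stromal-gated when it had at least 500 UMIs and at least 2 UMIs of Col1a1, Col1a2 and Pdgfra together. This gate took 31.1% and 36.4% of barcodes in the controls, 13.0% and 8.82% in the LPS libraries, and 15.2% and 10.4% in the SLC libraries. Exact binomial 95% intervals, which cover counting error only, ran from 30.3% to 31.8% and from 35.6% to 37.2% in the controls and from 12.5% to 13.6% and 8.31% to 9.34% in the LPS libraries. In SLC 1 the interval ran from 14.6% to 15.8%. The controls did not overlap the other groups, while the LPS and SLC libraries did overlap each other. With 2 against 2 libraries the smallest two-sided p of an exact permutation test is 0.33, and the shares therefore carry no test.

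Immune genes were not equally frequent in the gate. Barcodes with as many UMIs of Ptprc, Tyrobp, Cd52 and Coro1a as of the gate genes, called immune-rich below, were 27.9% and 20.1% of gated barcodes in the controls, 61.8% and 6.49% in the LPS libraries and 50.1% and 57.5% in the SLC libraries. LPS 2 stood apart from every other library in this respect. Of its barcodes with at least 5 UMIs of the 4 immune genes 3.26% held a Col1a2 UMI, against 22.6% to 34.8% elsewhere, a level of collagen RNA in cells that should lack it. Pdgfra, a fibroblast receptor, was present in 66.4% of gated barcodes of LPS 2, in 47.5% and 51.7% of the controls' and in 22.2% to 28.3% in LPS 1, SLC 1 and SLC 2. Most comparisons below are therefore given 3 ways: over all barcodes of at least 500 UMIs, within the gate, and within the gate without immune-rich barcodes. No doublet caller was run, and leaving out immune-rich barcodes is the only treatment of mixed barcodes.

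**Figure D1:**
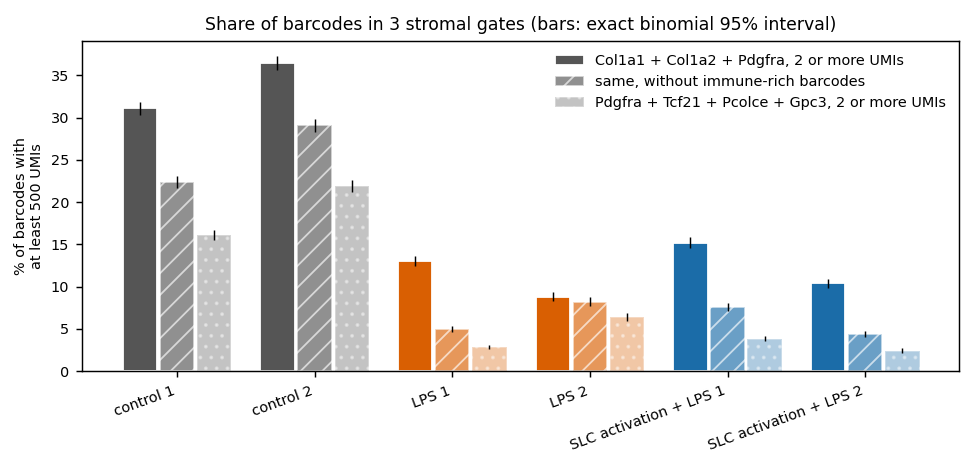
Share of barcodes with at least 500 UMIs that fell in each of 3 stromal gates, in percent, for the 6 libraries, with exact binomial 95% intervals as black lines. The controls are highest with every gate, and leaving out immune-rich barcodes lowers LPS 1, SLC 1 and SLC 2 by more than LPS 2, whose share goes from 8.82% to 8.24%.

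Most matrix RNA lay in the stromal gate. Of the members' UMIs 75.8% to 83.7% per library were in stromal-gated barcodes, 7.97% to 15.3% in barcodes under 500 UMIs, 2.05% to 6.01% in immune-gated and 0.313% to 3.14% in endothelial-gated barcodes. Part of this follows from the rule, since Col1a1 and Col1a2 define the gate. Col4a1 and Col4a2, the chains of the basement membrane's collagen network, had up to 23.2% and 22.2% of their UMIs in endothelial-gated barcodes. The summed level of the 42 genes over all barcodes of at least 500 UMIs was 14886 and 16225 CPM in the control libraries, 5243 and 4089.8 in the LPS libraries and 6313 and 4899 in the SLC libraries. Within the gate and without immune-rich barcodes it was 44282 and 40521 CPM in the control libraries, 53329 and 42239 in the LPS libraries and 48629 and 52335 in the SLC libraries. Over all barcodes both controls lay above the other 4 libraries, and the LPS and SLC libraries overlapped. In the gate without immune-rich barcodes the lowest library was control 2 and the highest LPS 1. That sum holds Col1a1 and Col1a2, which enter both the gate and the definition of immune-rich barcodes. Its order of libraries can therefore follow in part from the rule.

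Over all barcodes of at least 500 UMIs, 22 of the 42 genes fell after LPS and none rose (edgeR quasi-likelihood test, Benjamini-Hochberg adjusted p under 0.05 over 18110 genes). Of all genes tested 9.03% passed, 4.68% as lower and 4.35% as higher, so the members' share was above the background. After SLC activation plus LPS 21 of the 42 fell against control and none rose, beside a background of 13%, with 7.6% lower and 5.45% higher. The median log2 difference of the members was -1.50 in the LPS group and -1.30 in the SLC group, against -0.01 for all genes in both comparisons. With plain library totals in place of TMM scaling all genes shifted by -0.31 in both, and the members' medians became -1.86 and -1.59. In sums over all barcodes, fewer stromal cells and less RNA per stromal cell cannot be told apart, and the share of stromal-gated barcodes moved the same way. These calls depended on single libraries: without control 1 or without control 2 no member passed in either comparison. Without SLC 1 the counts were 9 and 4, beside 4.12% and 0.833% of all genes in those fits, and without SLC 2 they were 12 and 0, beside 4.42% and 0%. Without LPS 1 they were 25 and 30 (11.6% and 26.7% of all genes), and without LPS 2 they were 27 and 30 (16.4% and 27.3%). The 30 were 29 lower and 1, Eln, higher, and the fits without LPS 1 and without LPS 2 rest on the same control and SLC libraries for that comparison.

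**Figure D2:**
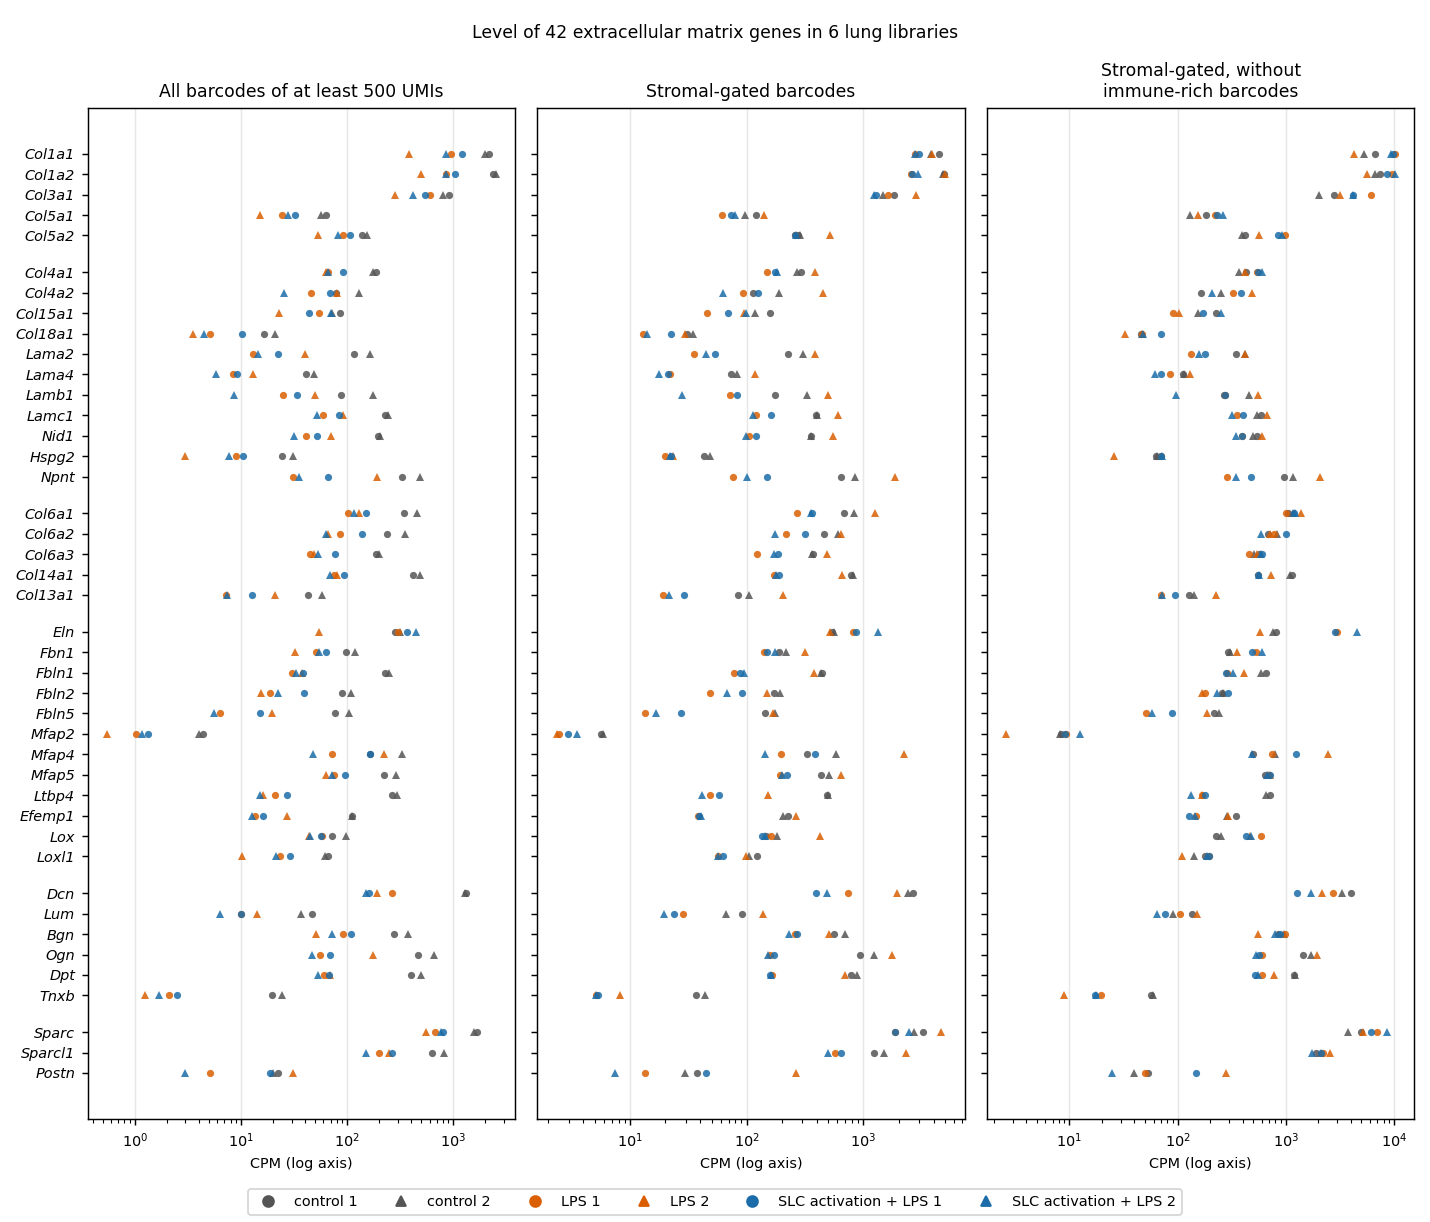
Level of each of the 42 genes in CPM on a log axis, in 6 libraries (colour for group, circle for replicate 1, triangle for replicate 2) and 3 sets of barcodes. Over all barcodes the controls lie to the right for nearly every gene, and the controls of Ltbp4 and Tnxb are right-most in all 3 sets.

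The 6 small proteoglycans and associated genes were the group with the lowest medians, -2.04 after LPS and -2.62 in the SLC group. All but Ogn fell after LPS, and all 6 fell in the SLC group. Dcn (decorin), which coats collagen fibrils and binds TGF-beta, stood at 1332 and 1289 CPM in the control libraries, 264 and 191 in the LPS libraries and 162 and 152 in the SLC libraries. Its log2 fold change was -2.16 ± 0.25 (SE) in the LPS group and -2.70 ± 0.25 in the SLC group, with edgeR adjusted p of 0.0176 and 0.0136. The controls were about alike, and both SLC libraries lay under both LPS libraries. Tnxb, the tenascin that ties collagen fibrils to elastic fibres, was at 19.4 and 24.2 CPM in the control libraries, 2.09 and 1.26 in the LPS libraries and 2.52 and 1.69 in the SLC libraries. Its log2 fold changes were -3.34 and -3.01, with edgeR adjusted p of 0.0189 and 0.0195. Dpt (dermatopontin), which helps assemble collagen fibrils, fell in both comparisons (log2 -2.41 and -2.53) and did not overlap the controls in either group. Lum (lumican) and Bgn (biglycan), proteoglycans of collagen fibrils, fell in both, with log2 fold changes of -1.41 and -1.83 after LPS and -2.004 and -1.49 in the SLC group. Ogn (osteoglycin) fell in the SLC group (log2 -2.92), while its LPS libraries were split at 55.2 and 176 CPM.

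Among 12 elastic fibre genes 6 fell in each comparison and the medians were -1.81 and -1.30. Ltbp4, which stores TGF-beta in the matrix and is needed for elastic fibre assembly in lung, had the lowest log2 fold change of the 42 genes. It stood at 265 and 294 CPM in the control libraries, 21.1 and 15.998 in the LPS libraries and 27.5 and 15.2 in the SLC libraries, with log2 fold changes of -3.55 ± 0.33 and -3.36 ± 0.33 and edgeR adjusted p of 0.0163 and 0.0136. Fbln1 and Fbln2, fibulins of elastic fibres and basement membranes, fell in both, with log2 fold changes of -2.45 and -2.16 after LPS and -2.38 and -1.34 in the SLC group. Efemp1 (fibulin-3) and Mfap5, a microfibril glycoprotein, also fell in both comparisons. Mfap2 passed after LPS only and Fbln5 in the SLC group only, and neither gene differed between the LPS and SLC groups by the same test. Eln (elastin) went its own way, at 284 and 318 CPM in the control libraries, 305 and 54.7 in the LPS libraries and 370.4 and 446 in the SLC libraries. Its SLC libraries lay above both controls, its LPS libraries were split, and no comparison passed (log2 -0.36 ± 0.70 and 0.81 ± 0.70 against control, edgeR adjusted p 0.775 and 0.455). Lox, the enzyme that cross-links collagen and elastin, was at 72.6 and 97.8 CPM in the control libraries, 58.2 and 43.6 in the LPS libraries and 57.3 and 44.6 in the SLC libraries with edgeR adjusted p of 0.398 and 0.353.

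Of 11 basement membrane genes 4 fell after LPS and 5 in the SLC group, with medians of -1.47 and -1.43. Col4a1, Lama4, Lamc1 (laminin chains of vessels and most basement membranes) and Nid1 (nidogen, which links laminin to collagen IV) fell in both. Nid1 stood at 195 and 203 CPM in the control libraries, 40.7 and 71.1 in the LPS libraries and 51.98 and 31.5 in the SLC libraries. Lama2, the laminin chain made by mesenchymal cells, passed in the SLC group only, at 117 and 166 CPM in the controls and 22.4 and 14.4 CPM in the SLC libraries and log2 -2.59 ± 0.54 (edgeR adjusted p 0.0347). Npnt (nephronectin), an integrin ligand of the alveolar basement membrane, was at 333 and 485 CPM in the control libraries, 31.2 and 194 in the LPS libraries and 66.4 and 35.4 in the SLC libraries and did not pass, with edgeR adjusted p of 0.24 and 0.0708. LPS 2 lay far above LPS 1, and all treated libraries lay under the controls.

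Fibrillar collagens had the smallest median change of the 6 roles in the SLC group. Their medians were -1.23 after LPS and -0.64 in the SLC group, and 2 of 5 passed after LPS and 0 of 5 in the SLC group. Col1a1 stood at 2169 and 2009 CPM in the control libraries, 951 and 382 in the LPS libraries and 1209 and 851 in the SLC libraries, log2 -1.27 ± 0.44 and -0.67 ± 0.43, with edgeR adjusted p of 0.116 and 0.327. Col1a2, the partner chain of type I collagen, fell after LPS (log2 -1.49) and had an edgeR adjusted p of 0.0761 in the SLC group. Col3a1, the fibril collagen of soft tissue, was at 913 and 803 CPM in the control libraries, 601 and 281 in the LPS libraries and 541 and 415 in the SLC libraries and passed in neither comparison. Of the other collagens Col6a1, Col6a3 (chains of beaded microfibrils around cells) and Col14a1 (a collagen on fibril surfaces) fell in both comparisons. Col14a1 was at 423 and 491 CPM in the control libraries, 74.7 and 80.01 in the LPS libraries and 92.8 and 68.9 in the SLC libraries, log2 -2.20 ± 0.22 and -2.14 ± 0.22. Of the matricellular genes Sparc, a collagen-binding glycoprotein, fell after LPS (log2 -1.04), and its relative Sparcl1 fell in both comparisons (log2 -1.32 and -1.45). Postn (periostin) was listed at 22.4 and 19.9 CPM in the control libraries, 5.09 and 31.2 in the LPS libraries and 18.8 and 2.95 in the SLC libraries, with no order among groups.

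Counted by libraries, 38 of 42 genes were lower in both LPS libraries than in both controls and none was higher, where 50.3% of all genes tested were lower by the same count and 15.2% higher. In the SLC group 41 were lower and 1, Eln, was higher, beside backgrounds of 52.9% and 19.5%. Between SLC activation plus LPS and LPS no member passed the edgeR test, 1 had an unadjusted p under 0.05, and DESeq2 also called 0. No gene of the 18110 passed in that comparison, a background of 0%. In that comparison 2 members, Dcn and Lum, were lower without overlap of libraries and 7 were higher, beside 10.7% and 13.4% of all genes.

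**Figure D3:**
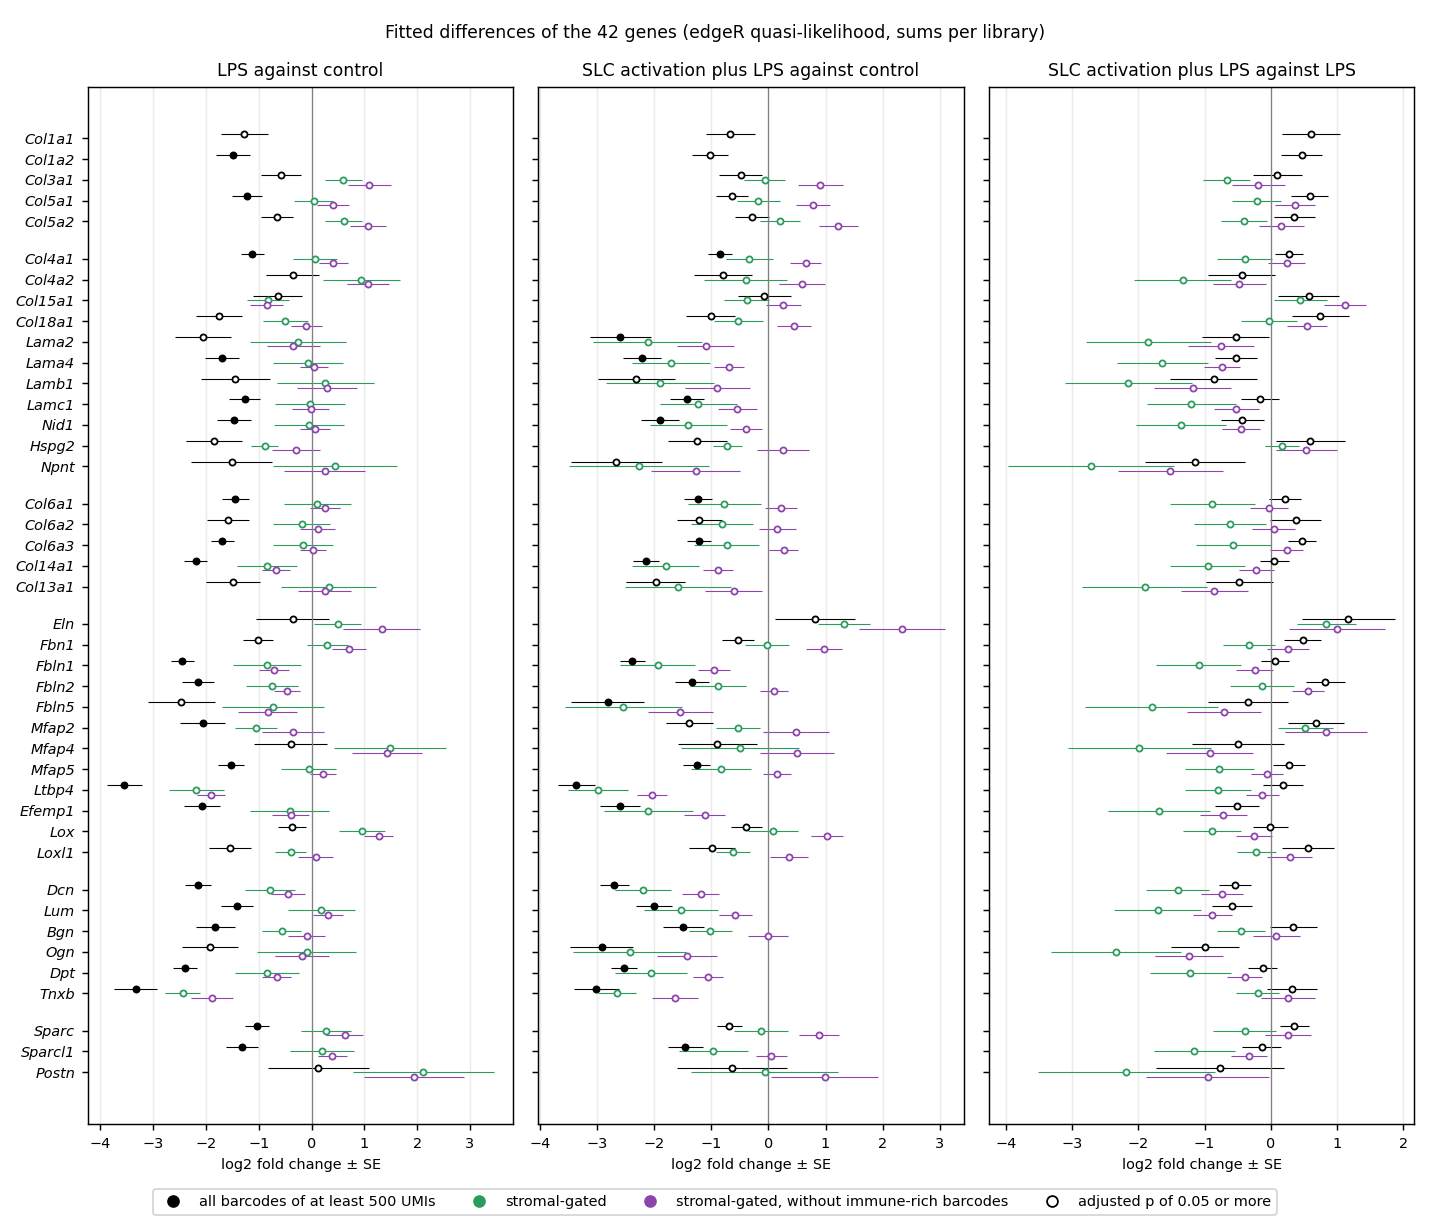
Fitted log2 fold change with its standard error for the 42 genes in 3 comparisons, over all barcodes of at least 500 UMIs (black), stromal-gated barcodes (green) and stromal-gated barcodes without immune-rich ones (purple), with filled points for adjusted p under 0.05. Col1a1 and Col1a2 are shown only in black because they define the gate. Filled points occur only in black, and the purple points of fibrillar collagens lie right of zero in both comparisons with control.

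Genes that process or receive the matrix were counted from 4 further lists over all barcodes, where 9.03% of all genes passed after LPS (4.68% lower) and 13% in the SLC group (7.6% lower). Of 19 collagen processing genes 3 fell after LPS and 5 in the SLC group, among them Pcolce, which helps cleave procollagen, and P4ha2, a prolyl hydroxylase. Of 24 other matrix genes 7 fell and 1 rose after LPS, and 9 fell and 2 rose in the SLC group. The gene that rose in both was Tgfbi, a TGF-beta induced matrix protein that macrophages also make, at log2 2.07 ± 0.29 and 2.45 ± 0.29. Tnc (tenascin-C), a glycoprotein of injured tissue, rose in the SLC group by log2 2.23 ± 0.37, at 7.52 and 9.74 CPM in the control libraries, 19.4 and 16.9 in the LPS libraries and 42.9 and 20.95 in the SLC libraries. Of 18 matrix receptors 3 and 5 fell, including the integrin chains Itga3, Itga11 and Itgb8. Of 18 TGF-beta pathway genes 3 and 5 fell, including Tgfb3, the inhibitor Bambi and the target Ccn2, and none rose. Within the stromal gate no gene of these 4 lists passed in any comparison by edgeR.

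Because members of several roles fell together over all barcodes, their upstream sequence was searched for CAGAC, the core of the element that SMAD proteins of the TGF-beta pathway bind, on both strands (GTCTG on the other). RefSeq windows on GRCm38.p6, another build than the authors', were on hand for 29 of the 42 members. In the 250 bases upstream of the start, 15 of 29 members (51.7%) held the motif, against 12377 of 27025 genes (45.8%). A match of 5 bases is a description and no binding site. Shown are a fibrillar collagen, a microfibrillar collagen, a fibulin and a tenascin with 2 matches each, chosen after the search, with the motif in capitals and each sequence 5′ to 3′ on the gene's strand. The windows are chr1:45311288-45311537 (plus strand) for Col3a1, chr1:90843972-90844221 (minus strand) for Col6a3, chr15:85205699-85205948 (plus strand) for Fbln1 and chr17:34670285-34670534 (plus strand) for Tnxb.
Col3a1: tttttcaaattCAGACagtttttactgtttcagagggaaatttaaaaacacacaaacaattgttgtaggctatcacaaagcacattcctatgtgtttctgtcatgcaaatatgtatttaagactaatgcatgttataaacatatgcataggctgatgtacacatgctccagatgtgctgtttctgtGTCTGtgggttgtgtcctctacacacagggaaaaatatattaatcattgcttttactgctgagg
Col6a3: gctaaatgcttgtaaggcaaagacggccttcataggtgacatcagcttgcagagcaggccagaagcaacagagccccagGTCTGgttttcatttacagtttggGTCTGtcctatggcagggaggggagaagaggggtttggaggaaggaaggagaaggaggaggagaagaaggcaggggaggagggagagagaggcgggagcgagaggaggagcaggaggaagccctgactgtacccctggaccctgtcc
Fbln1: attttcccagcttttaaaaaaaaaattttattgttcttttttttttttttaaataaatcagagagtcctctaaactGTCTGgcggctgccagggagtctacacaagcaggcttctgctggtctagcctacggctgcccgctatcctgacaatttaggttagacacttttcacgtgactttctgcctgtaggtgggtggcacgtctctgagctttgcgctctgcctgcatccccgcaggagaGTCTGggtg
Tnxb: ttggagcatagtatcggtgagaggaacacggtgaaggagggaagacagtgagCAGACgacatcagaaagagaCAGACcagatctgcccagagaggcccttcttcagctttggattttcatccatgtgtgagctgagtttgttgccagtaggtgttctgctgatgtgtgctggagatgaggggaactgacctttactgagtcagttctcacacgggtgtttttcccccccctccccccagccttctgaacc
Fbln1 and Tnxb fell over all barcodes in both comparisons, as did Col6a3, while Col3a1 did not pass.

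Within the stromal gate no member passed in any comparison by edgeR, of 40 tested (Col1a1 and Col1a2 define the gate). At an unadjusted p under 0.05 there were 4 members after LPS, 12 in the SLC group against control and 2 between SLC and LPS, and DESeq2 called 2, 4 and 0. No gene of 15584 was called in any of the 3, a background of 0%. Medians over the 40 genes were -0.06, -0.86 and -0.88, against 0.06, -0.01 and 0.03 for all genes tested. Tnxb had the smallest p against control, at 37.1 and 43.8 CPM in the control libraries, 5.17 and 8.25 in the LPS libraries and 5.30 and 5.08 in the SLC libraries. Its log2 fold changes were -2.45 ± 0.33 after LPS and -2.65 ± 0.34 in the SLC group, with unadjusted edgeR p of 0.000382 and 0.000252 and adjusted p of 0.458 and 0.356. All 4 treated libraries lay far under both controls. Ltbp4 was at 487 and 494 CPM in the control libraries, 48.2 and 151 in the LPS libraries and 58.4 and 41.4 in the SLC libraries, log2 -2.18 ± 0.52 and -2.98 ± 0.53, also without overlap with the controls (edgeR adjusted p 0.475 and 0.356).

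The members with the smallest p in the other roles had smaller log2 fold changes or were split by LPS 2. Hspg2 (perlecan), the large proteoglycan of basement membranes, was at 43.1 and 48.3 CPM in the control libraries, 20.03 and 23.6 in the LPS libraries and 22.5 and 22.1 in the SLC libraries, log2 -0.89 ± 0.26 and -0.72 ± 0.26. Its 4 treated libraries lay close together and under the controls. Col14a1 was at 778 and 819 CPM in the control libraries, 170.2 and 654 in the LPS libraries and 189 and 179.7 in the SLC libraries and Col5a2, a minor chain that sets fibril width, at 277 and 284 CPM in the control libraries, 259.7 and 516 in the LPS libraries and 259 and 262 in the SLC libraries. Postn, the matricellular gene with the smallest p after LPS, was at 37.2 and 29.8 CPM in the control libraries, 13.4 and 264 in the LPS libraries and 44.6 and 7.42 in the SLC libraries and rested on LPS 2. Sparcl1 had that place in the SLC group and between SLC and LPS, at 1238 and 1504 CPM in the control libraries, 577 and 2334 in the LPS libraries and 638 and 495 in the SLC libraries.

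Between SLC activation plus LPS and LPS the smallest p within each role belonged to Dcn, Lama4, Efemp1, Col13a1, Sparcl1 and Col3a1. Dcn stood at 2642 and 2395 CPM in the control libraries, 732 and 1934 in the LPS libraries and 390.1 and 490.0 in the SLC libraries, log2 -1.41 ± 0.48 with an unadjusted edgeR p of 0.0276 and an adjusted p of 0.868. Both SLC libraries lay under both LPS libraries. Lama4 was at 73.5 and 83.1 CPM in the control libraries, 22.2 and 119 in the LPS libraries and 21.2 and 17.6 in the SLC libraries, Efemp1 at 224 and 206 CPM in the control libraries, 38.6 and 264 in the LPS libraries and 39.4 and 40.7 in the SLC libraries and Col13a1, a transmembrane collagen of alveolar fibroblasts, at 84.8 and 104 CPM in the control libraries, 19.3 and 206 in the LPS libraries and 29.2 and 21.6 in the SLC libraries. In these 3 genes LPS 2 was the only high library among the treated. Col3a1 was at 1819 and 1461 CPM in the control libraries, 1637 and 2833 in the LPS libraries and 1278 and 1235 in the SLC libraries.

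The 2 LPS libraries disagreed in the gate for most members. Npnt was at 76.6 CPM in LPS 1 and 1865 in LPS 2, Ogn at 158 and 1761, and Mfap4, a microfibril protein, at 199 and 2231. Without LPS 2 the members called were 20 after LPS, all lower, 25 in the SLC group against control and 0 between SLC and LPS, beside 14.7%, 24.9% and 0% of all genes in that fit. Without LPS 1 they were 3, 25 and 28, the last with 27 lower and Eln higher in the SLC group, beside 2.44%, 24.2% and 28% of all genes. In both fits the comparison of the SLC group with control gave Eln higher and 24 members lower, and it rests on the same 4 control and SLC libraries each time. Leaving out any control or SLC library gave 0 calls in the gate. Without overlap of libraries 13 of the 40 members were lower and 0 higher after LPS, beside 26% and 8.62% of all genes. In the SLC group 36 were lower and 1, Eln, higher, beside 49.9% and 21.1%, and between SLC and LPS 6 were lower and 2 higher, beside 12.1% and 11.4%. The percent of immune-rich barcodes in the gate moved with these levels, and the values without such barcodes follow.

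Leaving out immune-rich barcodes kept 710 and 980 gated barcodes in the LPS libraries, 1065 and 584 in the SLC libraries and 3270 and 3989 in the controls. By their medians the values then split by role. The 3 fibrillar collagens that are not gate genes lay above the controls, and small proteoglycans lay below. Barcodes were kept when their UMIs of Col1a1, Col1a2 and Pdgfra exceeded those of the immune genes. This step can itself favour barcodes rich in fibrillar collagen RNA, and its part in the split was not tested. Summed over all 5 fibrillar collagens, gate genes included, levels were 17587 and 14502 CPM in control and 26936.5 and 13702 in LPS libraries. The SLC libraries stood at 23491 and 24895 CPM, and LPS 2 lay under both controls. Neutrophil markers, 5 of 5 detected, summed to 452 and 270.1 CPM in the control libraries, 1194 and 1566 in the LPS libraries and 1104 and 1690.2 in the SLC libraries, all 4 treated libraries above both controls. Their part in the role medians was not tested. No member passed by edgeR in the 3 comparisons, of 40 tested, with 10, 16 and 3 at an unadjusted p under 0.05, and 0% of 13196 genes were called. DESeq2 was not run on this gate. Medians over Col3a1, Col5a1 and Col5a2 were 1.07 after LPS and 0.91 in the SLC group, against 0.04 and 0.00 for all genes. The 6 small proteoglycans and associated genes had medians of -0.32 and -1.12, and the 12 elastic fibre genes -0.14 and 0.26. With library totals in place of TMM factors the last 2 kept their sign, at -0.26 and 0.15.

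Ltbp4 had the smallest p of the members against control in this gate, at 722 and 660.1 CPM in the control libraries, 168 and 167 in the LPS libraries and 181 and 134 in the SLC libraries. The log2 fold changes were -1.91 ± 0.26 after LPS and -2.04 ± 0.26 in the SLC group, with edgeR adjusted p of 0.207 and 0.154. The 4 treated libraries lay close together and far under the controls, LPS 2 included. Tnxb was at 56.7 and 59.8 CPM in the control libraries, 19.8 and 8.89 in the LPS libraries and 17.4 and 17.7 in the SLC libraries. Its log2 fold changes were -1.89 ± 0.40 and -1.63 ± 0.40, and for this gene LPS 2 lay under the other treated libraries. Dcn was at 4022 and 3319 CPM in the control libraries, 2745 and 2141 in the LPS libraries and 1280.1 and 1707 in the SLC libraries, log2 -0.45 ± 0.32, -1.19 ± 0.32 and, for SLC against LPS, -0.74 ± 0.32, with edgeR adjusted p of 0.846, 0.287 and 0.883. Its groups were in the order control, LPS, SLC with no overlap. Dpt showed 1178 and 1215 CPM in the control libraries, 607 and 775 in the LPS libraries and 515 and 554 in the SLC libraries and Fbln1 661 and 592 CPM in the control libraries, 286 and 414 in the LPS libraries and 277 and 323 in the SLC libraries, and the LPS and SLC libraries of both genes lay under the controls.

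Other members were higher in the treated libraries of this gate. Col5a2 stood at 422 and 394 CPM in the control libraries, 980.2 and 569.6 in the LPS libraries and 851 and 919 in the SLC libraries, log2 1.07 ± 0.34 and 1.22 ± 0.34 (edgeR adjusted p 0.454 and 0.295). Lox, chosen for description after its values were seen, like Eln, Npnt and Ogn, was at 225 and 254 CPM in the control libraries, 586 and 468 in the LPS libraries and 425 and 479 in the SLC libraries, with all 4 treated libraries above both controls. Col3a1 was at 2769 and 2009 CPM in the control libraries, 6096 and 3134 in the LPS libraries and 4140.1 and 4182 in the SLC libraries, also without overlap. Eln was at 807 and 767 CPM in the control libraries, 2986 and 572 in the LPS libraries and 2822 and 4499 in the SLC libraries: LPS 1 and both SLC libraries were high, and LPS 2 lay under the controls. Smooth muscle, a rich source of elastin, can pass the gate. Its 5 marker genes, all detected, summed to 942 and 1373 CPM in the control libraries, 1173 and 464 in the LPS libraries and 1544 and 558 in the SLC libraries, and 4 mesothelial markers, which also were all detected, to 1.90 and 1.64 CPM in the control libraries, 11.1 and 0 in the LPS libraries and 15.6 and 45.6 in the SLC libraries. LPS 2 was the lowest library for both lists and held none of the mesothelial markers. It was the highest for 6 markers of mural (vessel-wall) cells. These summed to 144 and 161 CPM in the control libraries, 142 and 409 in the LPS libraries and 280 and 97.7 in the SLC libraries. SLC 2, the highest library for Eln, lay under both controls for smooth muscle markers and was highest for mesothelial markers. Control 2 lay above LPS 1 for smooth muscle markers and under it for Eln. The part of these cells in the Eln values was not tested. Npnt and Ogn were split by LPS 2, Npnt at 968 and 1159 CPM in the control libraries, 287 and 2054 in the LPS libraries and 479 and 347 in the SLC libraries and Ogn at 1429 and 1704 CPM in the control libraries, 602 and 1939.6 in the LPS libraries and 560.3 and 530.2 in the SLC libraries. The alveolar fibroblast markers, Npnt and Col13a1 among them, summed to 4128 and 4277 CPM in the control libraries, 1148 and 6173 in the LPS libraries and 1489.8 and 1206 in the SLC libraries, highest in LPS 2 as well. Since Npnt is part of this sum, the sum is not separate from the Npnt values.

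With 1 LPS library left out, calls appeared in this gate. The LPS group is then 1 library, and the spread comes from the control and SLC libraries alone. Without LPS 2, 8 members passed after LPS, beside 2.21% of all genes in that fit: Col3a1, Col5a2, Eln and Lox rose, and Fbln5, Ltbp4, Npnt and Tnxb fell. Ltbp4 then had a log2 fold change of -1.88 ± 0.26 (edgeR adjusted p 0.0317) and Lox of 1.44 ± 0.23 (edgeR adjusted p 0.0413). In the SLC group against control 14 members passed without LPS 1 and 14 without LPS 2, beside 5.25% and 5.35% of all genes. Both fits rest on the same 4 control and SLC libraries for that comparison. In either fit these were the members called: Col5a2, Eln and Lox rose, and Col14a1, Dcn, Dpt, Efemp1, Fbln1, Fbln5, Lama2, Ltbp4, Npnt, Ogn and Tnxb fell. Ltbp4 had edgeR adjusted p of 0.00907 without LPS 1 and 0.0102 without LPS 2. Without LPS 1, 10 members passed between SLC and LPS, 3 higher and 7 lower in the SLC group and beside 9.16% of all genes, in a comparison whose LPS group is LPS 2 alone. Without overlap of libraries, 9 of the 40 members were lower and 8 higher after LPS (25.4% and 11.9% of all genes), 16 and 14 in the SLC group (35% and 22.6%), and 7 and 6 between SLC and LPS (9.87% and 16.7%).

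A gate that uses no member gene was read too. It took barcodes with at least 2 UMIs of Pdgfra, Tcf21, Pcolce and Gpc3, between 320 and 3004 per library, and no member passed in it. Here Col1a1 can be read without the rule choosing it: 7571 and 5595 CPM in the control libraries, 11307 and 4547 in the LPS libraries and 11479.8 and 10909.5 in the SLC libraries. Its log2 fold changes were 0.43 ± 0.49, 0.90 ± 0.49 and 0.48 ± 0.49, with edgeR adjusted p of 0.969, 0.496 and 0.876. LPS 1 and both SLC libraries were above the controls, and LPS 2 below them. Ltbp4 was at 784 and 681 CPM in the control libraries, 182 and 181 in the LPS libraries and 203 and 147 in the SLC libraries, log2 -1.88 ± 0.27 and -1.94 ± 0.27, with edgeR adjusted p of 0.108 and 0.0992.

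The make-up of the matrix RNA was read as the share of the 42 genes' UMIs that each role held, a measure added after the data had been seen. These shares sum to 100%, so a higher share of one role lowers the others. Small proteoglycans and associated genes held 17.1 and 17.7 percent in the control libraries, 9.23 and 12.3 in the LPS libraries and 6.67 and 6.78 in the SLC libraries over all barcodes of at least 500 UMIs. The groups were in the order control, LPS, SLC without overlap. In barcodes under 500 UMIs, which enter no gate, the shares were 14.9 and 14.9 percent in the control libraries, 8.03 and 9.61 in the LPS libraries and 5.89 and 5.70 in the SLC libraries. In the gate without member genes they were 17.5 and 18.5 percent in the control libraries, 9.51 and 13.7 in the LPS libraries and 7.02 and 7.06 in the SLC libraries. The same order without overlap was found in all 7 sets of barcodes examined, which overlap each other and share their libraries. With Col1a1 and Col1a2 left out of the total the shares over all barcodes were 24.6 and 24.6 percent in the control libraries, 14.1 and 15.7 in the LPS libraries and 10.3 and 10.4 in the SLC libraries, and the order was found in the same 7 sets. Dcn alone held 8.95 and 7.94 percent in the control libraries, 5.03 and 4.68 in the LPS libraries and 2.56 and 3.09 in the SLC libraries of the members' UMIs over all barcodes. Not every gene of the role shared the order. In each set where single genes were read, Dcn, Bgn, Dpt and Tnxb were lower after LPS than in control without overlap. Lower in SLC than in LPS libraries were Dcn, Lum and Dpt. Over all barcodes 2 of the 6 genes had a positive fitted log2 fold change for SLC against LPS.

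Fibrillar collagens held 38.2 and 34.2 percent in the control libraries, 48.3 and 29.98 in the LPS libraries and 46.3 and 45.6 in the SLC libraries over all barcodes. The SLC libraries and LPS 1 lay above the controls, and LPS 2 under them. Of the UMIs of the other 40 genes, with Col1a1 and Col1a2 left out, fibrillar collagens held 10.8 and 8.68 percent in the control libraries, 20.9 and 10.9 in the LPS libraries and 16.7 and 16.4 in the SLC libraries, and LPS 2 lay next to control 1 and above both controls. Elastic fibre genes held 11.3 and 12.9 percent in the control libraries, 12.9 and 13.3 in the LPS libraries and 14.5 and 15.9 in the SLC libraries, in the order control, LPS, SLC, where control 2 and LPS 1 were nearly equal, with Eln itself at 1.91 and 1.96 percent in the control libraries, 5.83 and 1.34 in the LPS libraries and 5.87 and 9.10 in the SLC libraries. Of the 40 genes without Col1a1 and Col1a2 the elastic fibre share was 16.4 and 17.9 percent in the control libraries, 19.8 and 16.9 in the LPS libraries and 22.5 and 24.4 in the SLC libraries, where LPS 2 lay between the controls. Basement membrane genes held 9.35 and 10.8 percent in the control libraries, 6.84 and 15.5 in the LPS libraries and 7.84 and 6.57 in the SLC libraries, and LPS 2 was the highest library and LPS 1 among the low ones. The other collagens held 8.32 and 9.61 percent in the control libraries, 6.00 and 8.42 in the LPS libraries and 7.49 and 6.34 in the SLC libraries and the matricellular genes 15.7 and 14.8 percent in the control libraries, 16.7 and 20.5 in the LPS libraries and 17.2 and 18.8 in the SLC libraries. For none of these shares can 2 against 2 libraries reach a two-sided exact permutation p under 0.33.

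**Figure D4:**
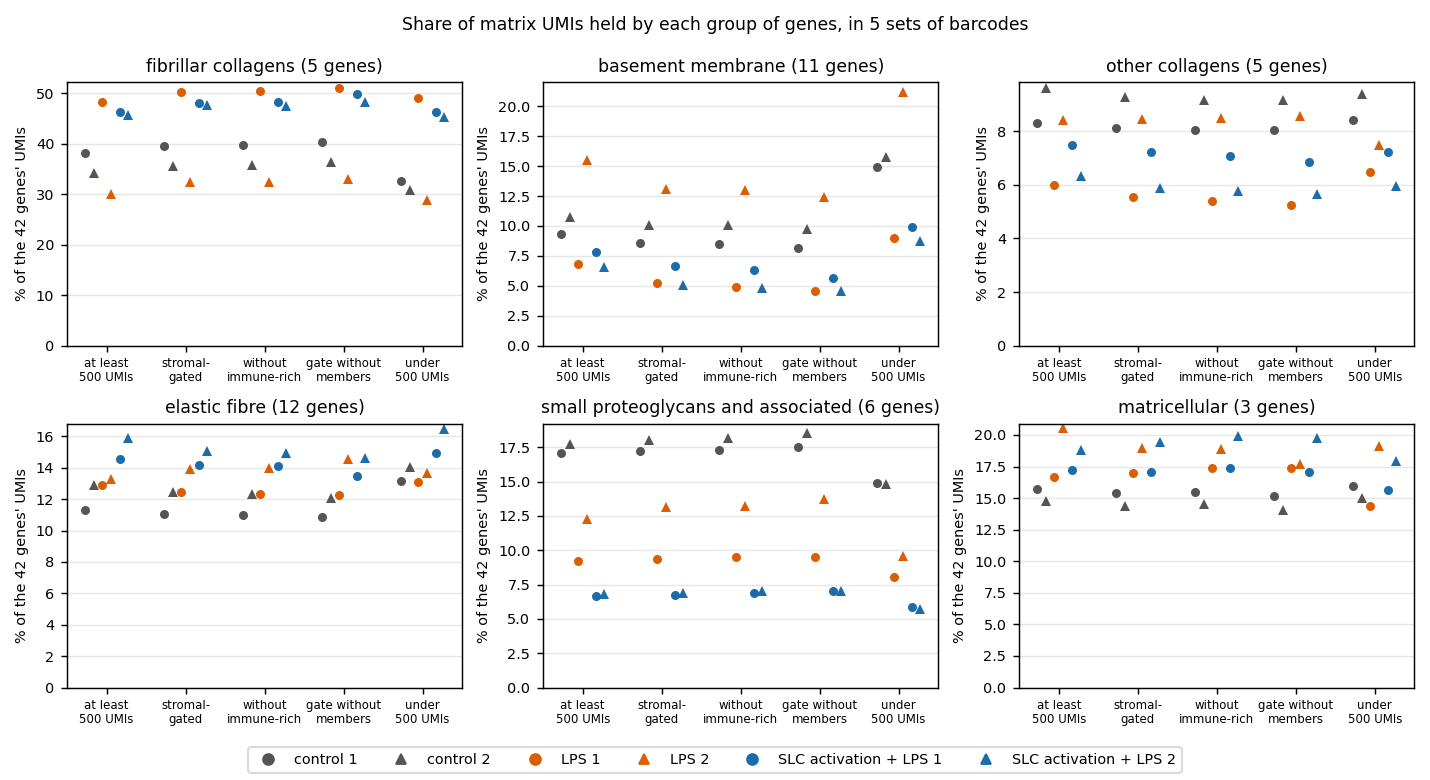
Percent of the 42 genes' UMIs held by each of 6 roles (panels) in 5 sets of barcodes, with 1 point per library (colour for group, circle for replicate 1, triangle for replicate 2). In the panel of small proteoglycans the controls lie at 14.9% to 18.5%, the LPS libraries at 8.03% to 13.7% and the SLC libraries at 5.70% to 7.06%, and each set of barcodes has the same order.

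Endothelial-gated barcodes (at least 2 UMIs of Pecam1, Cdh5, Cldn5 and Egfl7 and outside the stromal gate) numbered 1209 and 543 in the controls, 187 and 760 in the LPS libraries and 281 and 70 in the SLC libraries. Basement membrane genes were read there in every library. Col4a1 was at 490.3 and 347 CPM in the control libraries, 688 and 307 in the LPS libraries and 620.4 and 528 in the SLC libraries, Col4a2 at 230.3 and 312 CPM in the control libraries, 466 and 363 in the LPS libraries and 500.1 and 272 in the SLC libraries and Nid1 at 200.1 and 240.2 CPM in the control libraries, 293 and 202 in the LPS libraries and 142 and 132 in the SLC libraries, and none of the 3 passed. Sparc was at 992 and 1129 CPM in the control libraries, 1083 and 1092 in the LPS libraries and 1339 and 1366 in the SLC libraries. Of 36 members tested 4 fell after LPS (Npnt, Col14a1, Fbln1 and Bgn), beside a background of 1.25%, with 0.397% lower and 0.853% higher. In the SLC group against control and between SLC and LPS 0 passed by edgeR and 0 by DESeq2, with 7 at an unadjusted p under 0.05 in each, beside backgrounds of 0.561% (0.0234% lower) and 0%. Col14a1 was at 93.1 and 135 CPM in the control libraries, 19.7 and 2.42 in the LPS libraries and 27.9 and 15.5 in the SLC libraries, lowest in LPS 2, as were Col1a1 (4.84 CPM) and Dcn (6.05 CPM). Without immune-rich barcodes 0 passed after LPS, beside 0.106% of all genes. Without LPS 1, 23 passed after LPS, all lower, 4 in the SLC group and 15 between SLC and LPS, all higher in the SLC group, beside 13.4%, 3.43% and 6.76% of all genes in that fit. Without LPS 2 the counts were 1, 3 and 0, beside 1.06%, 2.88% and 0%. With control 1 or control 2 left out 0 passed after LPS (0.204% and 0.0215% of all genes), and with SLC 1 or SLC 2 left out 2 did (0.417% and 0.422%). The low collagen level in LPS 2 endothelial and immune barcodes went with these counts, and its part in them was not tested.

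Members also differed between kinds of stromal barcodes. Gated barcodes with at least 2 UMIs of Pi16, Clec3b, Dpp4 and Ly6a, and more of these than of Tcf21, Inmt, Ces1d, Limch1 and Slc7a10 were set against the reverse, within libraries and with library as a block. These are barcodes rich in adventitial and in alveolar fibroblast genes. Col1a1 and Col1a2 belong to the stromal gate and were left out of the counts. By edgeR 9 of 40 members differed (12.1% of 11771 genes, 5.52% higher and 6.53% lower): Lum was higher in adventitial-gene barcodes, and Col18a1, Lamb1, Npnt, Col6a3, Col13a1, Mfap4, Lox and Sparcl1 were lower. Without LPS 2 or without SLC 1 this count was 3, beside 7.63% and 6.8% of all genes, and without SLC 2 it was 5, beside 8.43%. Ly6a is also read in immune and endothelial cells. With at least 5 gate UMIs, no immune-rich barcodes and Ly6a left out, an alternative added after the data had been seen, 28 of 40 members differed, 20 higher and 8 lower, beside 17.1% of 9790 genes, 8.82% as higher and 8.27% as lower.

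In that stricter comparison Lum was highest by fold in adventitial-gene barcodes, at log2 2.64 ± 0.25 (edgeR adjusted p 0.000261), followed by Fbln2 at 2.21 ± 0.15, Col14a1 at 2.03 ± 0.09 and Dcn at 1.87 ± 0.19. Col3a1 and Col5a1, a minor chain of collagen fibrils, were also higher, at 0.96 ± 0.08 and 0.92 ± 0.12. Npnt and Col13a1 were lowest, at -4.77 ± 0.30 and -4.00 ± 0.37, and Sparcl1 and Mfap4 followed at -1.25 ± 0.14 and -0.77 ± 0.13. Col14a1 and Dcn are fixed adventitial markers, and Npnt and Col13a1 alveolar ones, though none was used to split the barcodes. Eln (-0.02 ± 0.31), Bgn (0.03 ± 0.10) and Col6a1 (0.01 ± 0.10) did not pass. Some directions depended on the gate. In the gate of at least 2 UMIs Col3a1 and Col5a1 were at -0.03 ± 0.47 and -0.10 ± 0.48. Ltbp4 and Sparc, both at 0.56 in the stricter gate, were at -0.66 and -0.44, and none of these genes passed there. Lum, Fbln2, Col14a1, Dcn, Npnt, Col13a1, Sparcl1 and Mfap4 had the same sign in both gates.

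Both kinds of barcodes showed the low levels of Ltbp4 and Tnxb in treated libraries. In strict adventitial-gene barcodes Ltbp4 was at 1091 and 1057 CPM in the control libraries, 276 and 169 in the LPS libraries and 363 and 206 in the SLC libraries, and in strict alveolar-gene barcodes at 806 and 707 CPM in the control libraries, 177 and 195 in the LPS libraries and 199 and 164 in the SLC libraries. Tnxb was at 134 and 132 CPM in the control libraries, 45.1 and 13.01 in the LPS libraries and 37.6 and 28.98 in the SLC libraries in the first and 50.2 and 53.8 CPM in the control libraries, 19.3 and 9.75 in the LPS libraries and 14.9 and 18.3 in the SLC libraries in the second. All 4 treated libraries lay under both controls for both genes in both kinds. Dcn was at 10842 and 9393 CPM in the control libraries, 6489 and 7958 in the LPS libraries and 4754 and 3433 in the SLC libraries in adventitial-gene and 3159 and 2625 CPM in the control libraries, 2178 and 1996 in the LPS libraries and 793 and 1621 in the SLC libraries in alveolar-gene barcodes, with the SLC libraries lowest in both. Adventitial-gene barcodes were few in the treated libraries, 77 and 22 for LPS and 103 and 52 for SLC. Eln in alveolar-gene barcodes was at 829.9 and 852 CPM in the control libraries, 4171 and 593 in the LPS libraries and 2897 and 7285 in the SLC libraries. Npnt there was at 1594 and 1742 CPM in the control libraries, 487 and 2619 in the LPS libraries and 911 and 660.0 in the SLC libraries, again with LPS 2 highest and LPS 1 lowest.

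**Figure D5:**
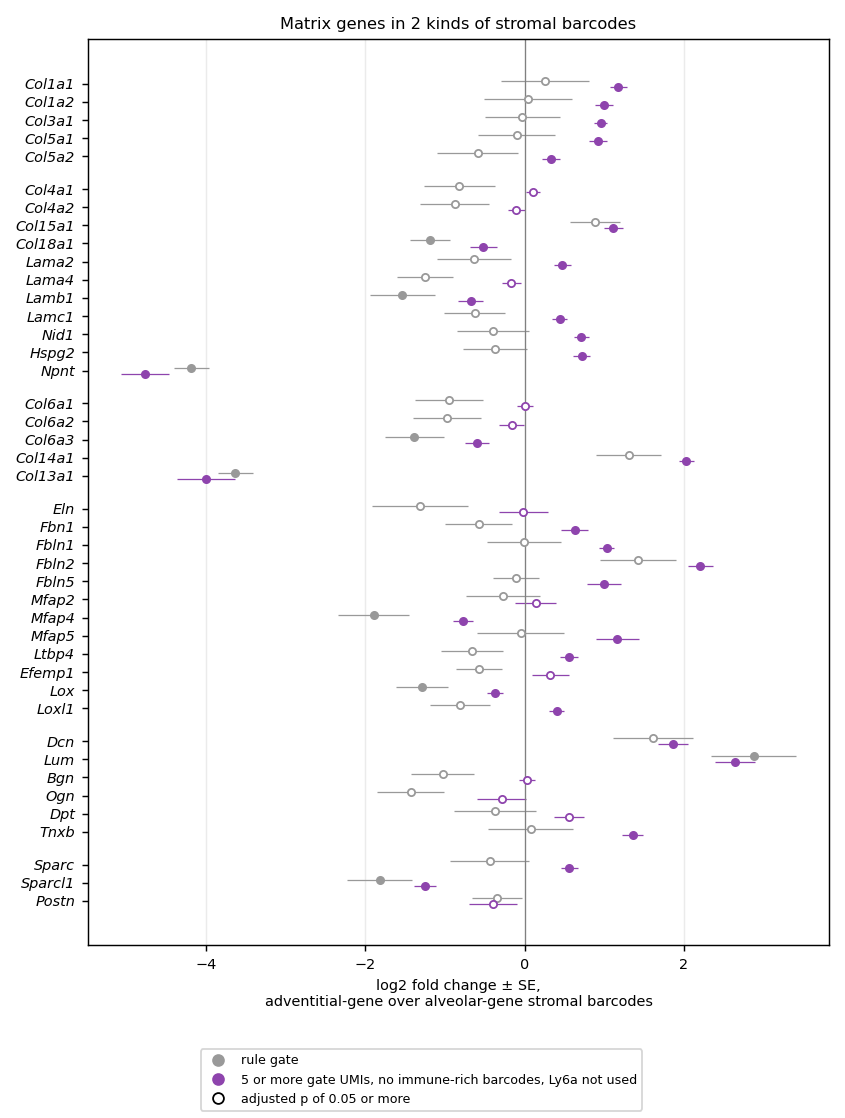
Log2 fold change with its standard error of the 42 genes (Col1a1 and Col1a2, which belong to the stromal gate, as a description) between adventitial-gene and alveolar-gene stromal barcodes, for the gate of at least 2 UMIs (grey) and the stricter gate (purple), with filled points for adjusted p under 0.05. Npnt and Col13a1 lie far to the left, at -4.77 and -4.00 in the stricter gate, and Lum, Fbln2, Col14a1 and Dcn to the right, between 1.87 and 2.64.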

How the data were processed

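Single-cell RNA libraries of 6 mouse lungs (BD Rhapsody whole-transcriptome workflow, DNBSEQ-T7, per the labels' protocols) were used. The authors deposited raw UMI counts, whole numbers for every gene in every barcode of a library. Builds GRCm39 and mm39 stand in the submitters' processing notes, and the sources used here name no counting tool. Here counts were summed per library over each set of barcodes and tested with edgeR 4.0.16 (TMM, filterByExpr, robust quasi-likelihood F test, group as the only term, or kind of barcode with library as a block for the 2 kinds of stromal barcodes, all 6 libraries in 1 fit, Benjamini-Hochberg adjustment over all genes of the set). A gene was said to rise or fall at adjusted p under 0.05. DESeq2 1.42.0 was an alternative (R 4.3.3, Python 3.11.15). Differences of CPM used a pseudocount of 0.5 CPM. In simulated data on the stromal gate (LPS against control, 15266 genes) the test found 33% of 4-fold and 100% of 16-fold changes, with 3 false calls. The simulation gave all genes the same spread and did not copy the split between the LPS libraries. Its rates therefore cannot be taken as those of the real data. Replicates differed by more than counting noise (chi-square per degree of freedom 20.0, 153 and 54.1 for control, LPS and SLC). Gates other than the stromal one took barcodes left by earlier gates. Members that pass in the stromal gate, or else the 1 of each role with the smallest p, were to be given in full. The members and lists were chosen with earlier results of these data known. Alternatives were tests, scaling, filters, gates, left-out libraries and a replicate block. No protein sequences were used here.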

Additional observations from a re-analysis of the deposited data

How the results depend on the processing

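In stromal-gated barcodes the count of members called after LPS was 2 by DESeq2 and 2 with no filter on low counts, and in the SLC group against control 4 and 2, where the reported counts are 0. Leaving out 1 library gave 0 to 20 after LPS, 0 to 25 in the SLC group and 0 to 28 between SLC and LPS. Without immune-rich barcodes the ranges were 0 to 8, 0 to 14 and 0 to 10. Over all barcodes they were 0 to 27, 0 to 30 and 0 to 0, with DESeq2 calling 32 and 27 against control. In endothelial barcodes they were 0 to 23, 0 to 4 and 0 to 15, with 17, 3 and 2 calls with no filter and 0 after LPS without immune-rich barcodes. Between adventitial-gene and alveolar-gene barcodes the range was 3 to 11, with 16 by DESeq2, 5 with no filter, 22 without immune-rich barcodes and 28 in the stricter gate. The mean stromal share of control libraries was 40.1% at 1000 UMIs, 19.9% with 5 gate UMIs, 25.8% with gate genes at 0.1% of UMIs, 18.98% without member genes, 25.7% without immune-rich barcodes and 19.5% with 5 gate UMIs and no immune-rich barcodes. For LPS the last 5 were 5.49%, 7.09%, 4.64%, 6.61% and 5.13%, and for SLC 4.40%, 6.60%, 3.15%, 6.01% and 3.93%, with 16.5% at 1000 UMIs. Npnt after LPS in the stromal gate turned from 0.45 to -2.94 (log2) and passed without LPS 2, and was 1.36 without LPS 1. Of 30 pairs of a named member and comparison in the stromal gate, 510 alternatives gave 448 with the same direction and call, 41 that passed only there, 1 reversed and 20 with another sign and no call. Over all barcodes 144 alternatives for 12 pairs gave 112 alike and 32 that lost the call. With the replicate number as a block the all-barcode counts were 8 and 7. Deviations of same-numbered libraries from their group means correlated by 0.14 (control and LPS), -0.07 (control and SLC) and -0.21 (LPS and SLC). With 2 libraries per group these values cannot show whether same-numbered libraries shared more than a number. The gates of 5 UMIs without immune-rich barcodes, the stricter sub-gates and the endothelial gate without immune-rich barcodes were added after the data were seen. Where a count moved, the cause was not tested. The stricter adventitial-gene set of LPS 2 held 22 barcodes.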
